A study of Mus musculus with 12 samples.

Results

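In the small intestine of the mouse, 10 genes that mark macrophages and dendritic cells were followed: Csf1r, Adgre1, Cx3cr1, Itgax, Fcgr1, Cd68, Mertk, C1qa, C1qb and C1qc. These 10, of 17112 genes listed in all, were taken by name, as genes known to mark these cells, by a rule that uses no measured value. Earlier results of these data were, however, known when they were chosen. RNA-seq libraries came from 12 C57BL/6 mice, 1 library per mouse, from tissue given as whole small intestine. By their Zip4 genotype the mice were WT (wild type), HET (heterozygous) or KO (knockout), and Zip4 (gene symbol Slc39a4) imports zinc into enterocytes. Each genotype was fed zinc bound to an organic complex at its amino or its hydroxy end, which gave 6 groups of 2 libraries. The design asks whether the zinc complex changes the gut and whether this depends on Zip4.

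WT and HET mice were fed 15 ppm zinc and KO mice 40 ppm, per the sample labels, whereas the series description gives 15 ppm for all. Genotype and zinc level therefore cannot be told apart wherever KO is compared, if the sample labels hold. WT mice were 210 to 237 days old and KO mice 198 to 240 days, while HET mice were 141, 143, 338 and 363 days old. All were labelled male except KO amino 2, labelled female. Libraries carry the name of their group with a number, as in HET amino 2 for replicate 2 of the HET mice fed the amino complex. The older HET mice are HET amino 1 (363 days) and HET hydroxy 1 (338 days). The labels used here do not describe how the Zip4 alleles were made or which cells carry the deletion. No label says whether mice shared a litter, cage or day.

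Macrophages of the gut wall take up bacteria that cross the epithelium and clear dying cells, and they are replaced from blood monocytes for much of life. Their survival depends on the receptor CSF1R and its ligands CSF1 and IL-34. Dendritic cells carry antigen to lymph nodes and share several surface proteins with gut macrophages, among them CD11c (Itgax) and CX3CR1. The transcription factor PU.1, encoded by Spi1, drives many genes of both cell types through DNA sites with a GAGGAA core.

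Every one of the 10 genes was detected in every library, with 26 to 3852 reads behind a value, and all 10 passed the filter on low values (at least 1 CPM, reads scaled by library size, in at least 2 libraries). Compared per kilobase of exon (mean CPM over 12 libraries divided by exon length), C1qa stood highest at 42.8 ± 12.1 CPM per kb (SD, n = 12), followed by C1qb at 28.9 ± 10.01, Mertk at 18.0 ± 5.12 and C1qc at 14.9 ± 3.63. Csf1r (7.62 ± 3.35), Cd68 (3.51 ± 1.39), Itgax (3.004 ± 1.53), Cx3cr1 (2.74 ± 1.19), Adgre1 (2.08 ± 0.940) and Fcgr1 (0.701 ± 0.330) came lower. From Cd68 to Adgre1 neighbours in this order lay within 1 SD of each other, as did Mertk and C1qc. Among 8 dendritic cell markers, Zbtb46, a transcription factor of conventional dendritic cells, ranged from 0.310 to 1.90 CPM. Xcr1, a receptor of cross-presenting dendritic cells, ranged from 0.348 to 2.52 CPM, beside 0.780 to 3.43 CPM for Fcgr1. The 8 markers summed to 18.2 to 25.7 CPM in WT, 25.4 to 45.4 in HET and 13.9 to 25.1 in KO. Since macrophages also express all 10 genes, their levels do not separate these cell types, and in whole tissue fewer cells of a type and less RNA per cell cannot be told apart.

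Libraries held 26.0 to 38.8 M reads, read from the steps between low values, and 3 reads correspond to 0.0773 to 0.115 CPM, which covers counting error only. Slc39a4 stood at 42.0 to 91.6 CPM in KO and differed from HET by −1.40 on the log2 scale (adjusted p = 0.0273) and from WT by −1.71 (adjusted p = 0.0736), by the limma test used throughout. In both KO amino libraries, which belong to 1 group, Xist and a Y-linked gene did not match the labelled sex. HET amino 2 stood apart: 1539 genes were at the floor of the table, against 478 to 862 in the other 11 libraries. Fabp6, an ileal gene, reached 99.3 CPM there and 259 CPM in WT hydroxy 1 and stayed below 1 CPM elsewhere. Egr1, an immediate early gene, reached 874 and 657 CPM in the older HET mice.

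The complement genes lie side by side on chromosome 4 (build mm10) and are shown first by their promoters, because C1qa and C1qb RNA is the most abundant per kilobase and because 2 of the 3 promoters are in the RefSeq table used here. C1qb spans 136880145 to 136886177, C1qc 136889802 to 136892914 and C1qa 136895916 to 136898844, all on the minus strand, with 3624 and 3001 bases between neighbours. In RefSeq (GRCm38.p6) the 300 bases around the start of transcription, 250 before and 50 after, read 5′ to 3′ on the gene's strand as printed here, with GAGGAA or its reverse complement TTCCTC in capitals. Fcgr1 is added as another promoter with a match and Mertk as one with none, since Mertk differed from the other genes in its levels. Itgax and Cx3cr1, both lower in KO than in HET (log2 −1.31 and −0.94), had no match either. A link between a match and the levels was not tested. The regions are chr4:136886151-136886450 (minus strand) for C1qb, chr4:136892865-136893164 (minus) for C1qc, chr3:96293920-96294219 (minus) for Fcgr1 and chr2:128698665-128698964 (plus) for Mertk.
C1qb: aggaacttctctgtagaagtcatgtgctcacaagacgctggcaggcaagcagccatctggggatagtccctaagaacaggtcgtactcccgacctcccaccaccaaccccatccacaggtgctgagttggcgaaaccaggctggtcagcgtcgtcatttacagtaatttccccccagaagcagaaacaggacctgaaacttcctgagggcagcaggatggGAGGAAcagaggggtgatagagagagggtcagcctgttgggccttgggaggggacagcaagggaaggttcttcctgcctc
C1qc: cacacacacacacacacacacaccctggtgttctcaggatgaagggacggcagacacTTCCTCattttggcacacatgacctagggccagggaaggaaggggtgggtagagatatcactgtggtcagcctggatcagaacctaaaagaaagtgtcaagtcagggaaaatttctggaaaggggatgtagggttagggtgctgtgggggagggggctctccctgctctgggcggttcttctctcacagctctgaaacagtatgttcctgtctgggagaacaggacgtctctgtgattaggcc
Fcgr1: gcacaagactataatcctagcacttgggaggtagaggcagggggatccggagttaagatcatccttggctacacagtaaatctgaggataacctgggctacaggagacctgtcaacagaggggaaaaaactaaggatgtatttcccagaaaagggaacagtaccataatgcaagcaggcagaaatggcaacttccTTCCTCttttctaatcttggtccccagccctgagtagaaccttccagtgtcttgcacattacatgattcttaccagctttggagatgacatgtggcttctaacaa
Mertk: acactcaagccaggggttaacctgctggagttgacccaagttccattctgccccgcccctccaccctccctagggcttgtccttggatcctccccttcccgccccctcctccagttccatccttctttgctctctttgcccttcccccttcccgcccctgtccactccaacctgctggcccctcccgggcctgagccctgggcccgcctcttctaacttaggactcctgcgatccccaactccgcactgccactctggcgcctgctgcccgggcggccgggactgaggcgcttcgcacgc
Promoters of 7 of the 10 genes were searched, and those of Csf1r, C1qa and Adgre1 were not. GAGGAA, searched on both strands, occurred in 4 of these 7 (C1qb, C1qc, Cd68 and Fcgr1) and in 28.3% of 32851 promoters of equal length. Its first base lay at −30 from the start in C1qb, −193 in C1qc and −55 in Fcgr1. Another ETS-type motif, GGAAGT, which can overlap the first, occurred in 5 of 7 and in 23.8% of all promoters, and the AP-1 motif TGANTCA in 2 of 7 and 7.81%. A match of letters is not a measured binding site. Spi1 RNA, for PU.1 itself, stood at 7.12 ± 0.846 CPM in WT, 9.78 ± 2.35 in HET and 7.83 ± 0.628 in KO (SD, n = 4), and its difference between KO and HET did not pass (log2 −0.27, adjusted p = 0.380).

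HET mice had the highest mean level for 9 of the 10 genes, and 4 of them were lower in KO than in HET past the threshold: Csf1r, Itgax, Adgre1 and Cx3cr1. Their KO means were 0.464, 0.376, 0.433 and 0.480 times the HET means. KO and WT did not differ past the threshold in any of the 10. These tests were made with limma on log2(CPM + 1) over 14001 genes, adjusted by Benjamini-Hochberg with a threshold of 0.05. Of all genes tested, 3.4% were called lower in KO than in HET and 6.84% in either direction, against 4 of these 10 genes. This contrast is limited by the choice of the 10 genes, made with earlier results of these data known.

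**Figure D1:**
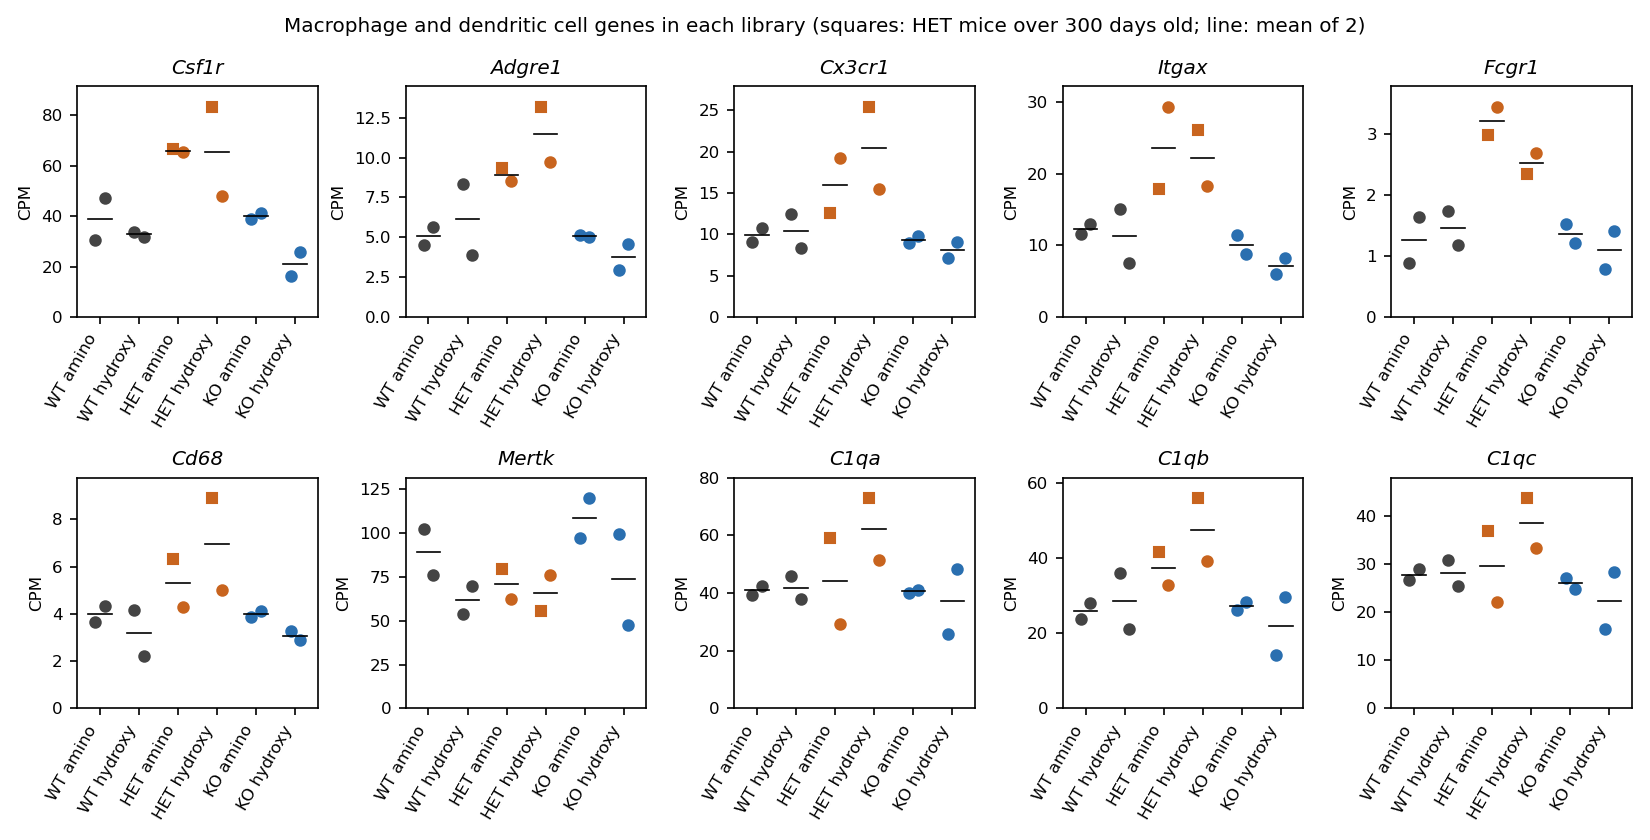
CPM (linear axis from 0) of the 10 genes in each of the 12 libraries, with points for libraries, squares for the HET mice over 300 days old and a line for the mean of 2. The 4 HET values lie above all KO values for 7 genes, while Mertk reaches its highest value, 119 CPM, in a KO library.

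Csf1r (chromosome 18), the receptor for CSF1 and IL-34, stood at 30.4, 47.0, 33.9 and 31.8 CPM in WT amino 1 and 2 and WT hydroxy 1 and 2. In the same order of diets and replicates, HET held 66.7, 65.3, 83.3 and 47.95 CPM and KO 38.9, 41.1, 16.2 and 25.9 CPM. All HET libraries were above all others, and the 2 KO hydroxy libraries were the lowest of the 12. KO was lower than HET by −1.14 on the log2 scale (SE 0.22, adjusted p = 0.0253). HET exceeded WT by 0.86 (SE 0.22), which did not pass over all genes (adjusted p = 0.207), and KO differed from WT by −0.29 (adjusted p = 0.645).

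Its ligands gave no call between KO and HET on the deposited values. Csf1, made by stromal and other cells, stood at 18.1 ± 8.55 CPM in HET and 12.04 ± 3.93 in KO (SD, n = 4; log2 −0.47, adjusted p = 0.421). Il34, the other ligand, stood at 9.17 ± 2.37 and 5.84 ± 0.859 CPM (log2 −0.55, adjusted p = 0.135). In all, 0 of 7 growth factors and ligands passed, with a median difference of −0.47 against −0.07 over all genes tested. At an unadjusted p under 0.05 stood 4 of the 7, of which Csf2, for GM-CSF, was higher in KO (log2 0.69, adjusted p = 0.139), beside 27.5% of all genes in this comparison. Of 4 other growth factor receptors of myeloid cells, Csf2ra, a chain of the receptor for GM-CSF, fell from 13.5 ± 1.66 to 7.36 ± 1.72 CPM (log2 −0.80, adjusted p = 0.0317).

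Itgax (chromosome 7, 128129568 to 128150657, plus strand) encodes CD11c, an integrin chain of dendritic cells and gut macrophages. It stood at 11.6, 12.9, 15.1 and 7.48 CPM in WT, 17.9, 29.3, 26.1 and 18.3 in HET, and 11.5, 8.74, 6.03 and 8.20 in KO. The HET libraries did not overlap the others, and the highest of them was HET amino 2. The difference between KO and HET was −1.31 (SE 0.26, adjusted p = 0.0271), the largest of the 10 genes.

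Adgre1 (chromosome 17, 57358686 to 57483529, plus strand) encodes F4/80, the classical surface marker of mouse macrophages. WT libraries held 4.49, 5.65, 8.35 and 3.90 CPM, HET 9.33, 8.53, 13.2 and 9.74, and KO 5.17, 4.99, 2.94 and 4.55. HET lay above every WT and KO library, though HET amino 2 and WT hydroxy 1 were close. KO was lower than HET by −1.05 (SE 0.25, adjusted p = 0.0405).

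Cx3cr1 (chromosome 9, 120048683 to 120068296, minus strand), the fractalkine receptor of gut macrophages, stood at 9.01, 10.7, 12.5 and 8.40 CPM in WT. HET held 12.6, 19.3, 25.4 and 15.5 CPM and KO 8.92, 9.79, 7.08 and 9.07. HET amino 1, at 12.6 CPM, barely exceeded WT hydroxy 1, at 12.5. The difference between KO and HET was −0.94 (SE 0.23, adjusted p = 0.0433).

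Fcgr1 (chromosome 3, 96282909 to 96293969, minus strand) encodes CD64, the high-affinity receptor for IgG, and was the least abundant of the 10. It stood at 0.885, 1.64, 1.73 and 1.18 CPM in WT, 2.98, 3.43, 2.34 and 2.68 in HET, and 1.52, 1.21, 0.780 and 1.40 in KO. The HET libraries again lay above all others, but the test did not pass (log2 −0.80, SE 0.21, adjusted p = 0.0510), and the added 1 CPM understates changes at this level. None of 4 further Fc receptor genes passed on the deposited values (1 at an unadjusted p under 0.05), and Fcgr4, an activating IgG receptor, came nearest (log2 −0.73, adjusted p = 0.106).

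Cd68 (chromosome 11, 69664213 to 69666170, minus strand), a glycoprotein of macrophage lysosomes, held 2.20 to 4.35 CPM in WT, 4.29 to 8.87 in HET and 2.90 to 4.12 in KO. HET and KO did not overlap, whereas HET and WT did. Its difference between KO and HET was −0.62 (SE 0.25, adjusted p = 0.140).

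Mertk (chromosome 2, 128698915 to 128803007, plus strand), a receptor tyrosine kinase that mediates the uptake of dying cells, departed from the other 9. It stood at 102, 75.8, 53.7 and 69.7 CPM in WT, 79.5, 62.5, 55.5 and 75.97 in HET, and 96.8, 119, 99.3 and 47.6 in KO. The KO group held both the highest and the lowest library, and the 3 genotypes overlapped. Its differences were 0.34 for KO against HET (95% interval −0.19 to 0.87, adjusted p = 0.371), 0.23 for KO against WT and −0.12 for HET against WT. Among 8 other genes of dying-cell uptake, Stab1 (a scavenger receptor, log2 −1.10), Axl (a kinase of the Mertk family, −1.10) and Lrp1 (an endocytic receptor, −0.85) were lower in KO than in HET, with adjusted p of 0.0124, 0.0466 and 0.0303. The call of Lrp1 ended when the trend with exon length was removed (−0.31, adjusted p = 0.364).

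C1qa, C1qb and C1qc encode the 3 chains of C1q, which starts the classical complement pathway and is made mainly by macrophages. C1qa held 39.3, 42.6, 45.8 and 37.8 CPM in WT, 58.9, 29.4, 72.8 and 51.4 in HET, and 40.0, 41.2, 25.9 and 48.4 in KO. HET amino 2 fell below every WT library, while the other 3 HET libraries lay above all WT and KO libraries. C1qb held 21.2 to 36.2 CPM in WT, 33.0 to 55.97 in HET and 14.2 to 29.6 in KO, so that HET and KO did not overlap.

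C1qc held 25.5 to 30.8 CPM in WT, 22.2 to 43.6 in HET and 16.4 to 28.4 in KO, with HET amino 2 again the lowest HET library. None of the 3 chains passed between KO and HET: C1qb differed by −0.79 (adjusted p = 0.0820), C1qc by −0.46 (0.194) and C1qa by −0.40 (0.322). Of 6 complement partners none passed on the deposited values (1 at an unadjusted p under 0.05), and C1s1, a protease of the C1 complex, came nearest (log2 −0.84, adjusted p = 0.0654).

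HET amino 2 stood outside the range of the other 11 libraries in the shares of C1qa and C1qb in the summed C1q CPM. C1qa made up 40.6% to 45.8% of the summed C1q CPM in these 11 and 34.8% in HET amino 2. C1qb made up 25.1% to 32.5% in the 11 libraries and 39.0% in HET amino 2. C1qb relative to C1qa was 0.549 to 0.791 in the 11 libraries and 1.12 in HET amino 2. Within the 11, this ratio was 0.707 to 0.769 in HET, 0.549 to 0.689 in KO and 0.560 to 0.791 in WT. Their sum meanwhile ranged from 56.6 CPM in KO hydroxy 1 to 172 CPM in HET hydroxy 1. The ratio of Itgax to C1qa was 0.169 to 0.358 in 11 libraries and 0.996 in HET amino 2. Within the 11 it was 0.303 to 0.358 in HET, 0.169 to 0.286 in KO and 0.198 to 0.329 in WT.

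**Figure D2:**
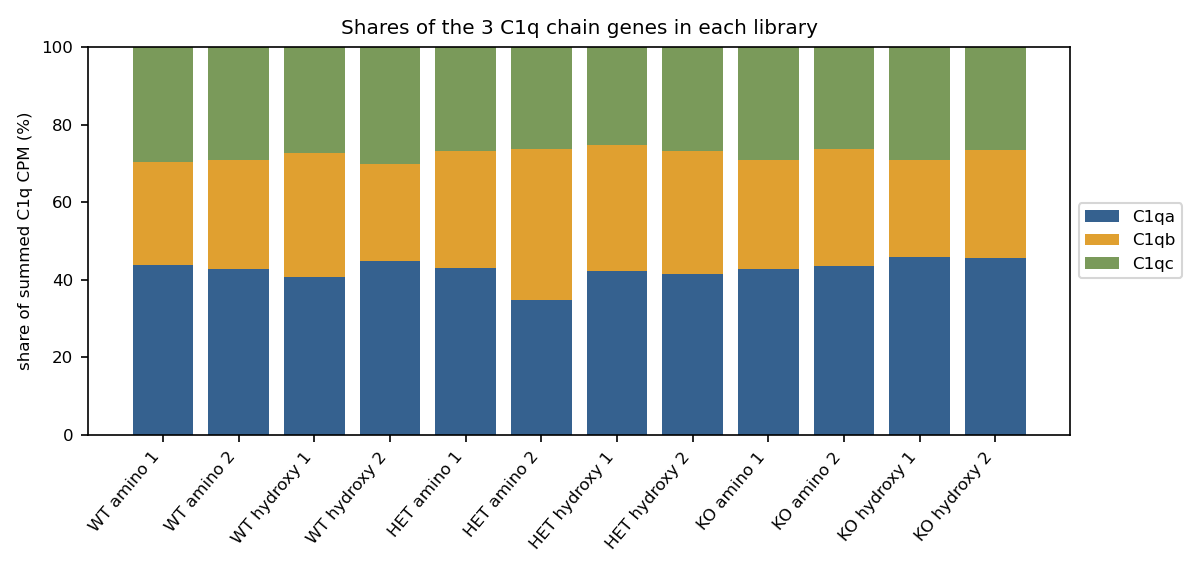
Share of C1qa, C1qb and C1qc in their summed CPM (percent, stacked bars from 0) in each library. The C1qa share is 34.8% in HET amino 2 and between 40.6% and 45.8% in the other 11 libraries.

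Between KO and HET, 7 of the 10 genes had every KO library below every HET library (7.13% of all genes tested did), and 9 of 10 had a negative difference, with a median of −0.79 against −0.07 over all genes. Between HET and WT, 5 of 10 had every HET library above every WT library (5.84% of all genes), with a median of 0.67 against 0.08. No gene of the 14001 passed in HET against WT (0%), nor any of the 10, although 15.3% of all genes and 7 of the 10 reached an unadjusted p under 0.05. KO and WT differed past the threshold in 4 genes (0.0286%) and in none of the 10. At an unadjusted p under 0.05 stood 0 of the 10 and 9.79% of all genes. Their median difference there was −0.18, and 0 of 10 had all KO libraries below all WT libraries (2.57% of all genes). KO against HET and HET against WT share the HET libraries, and KO against WT does not use them.

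**Figure D3:**
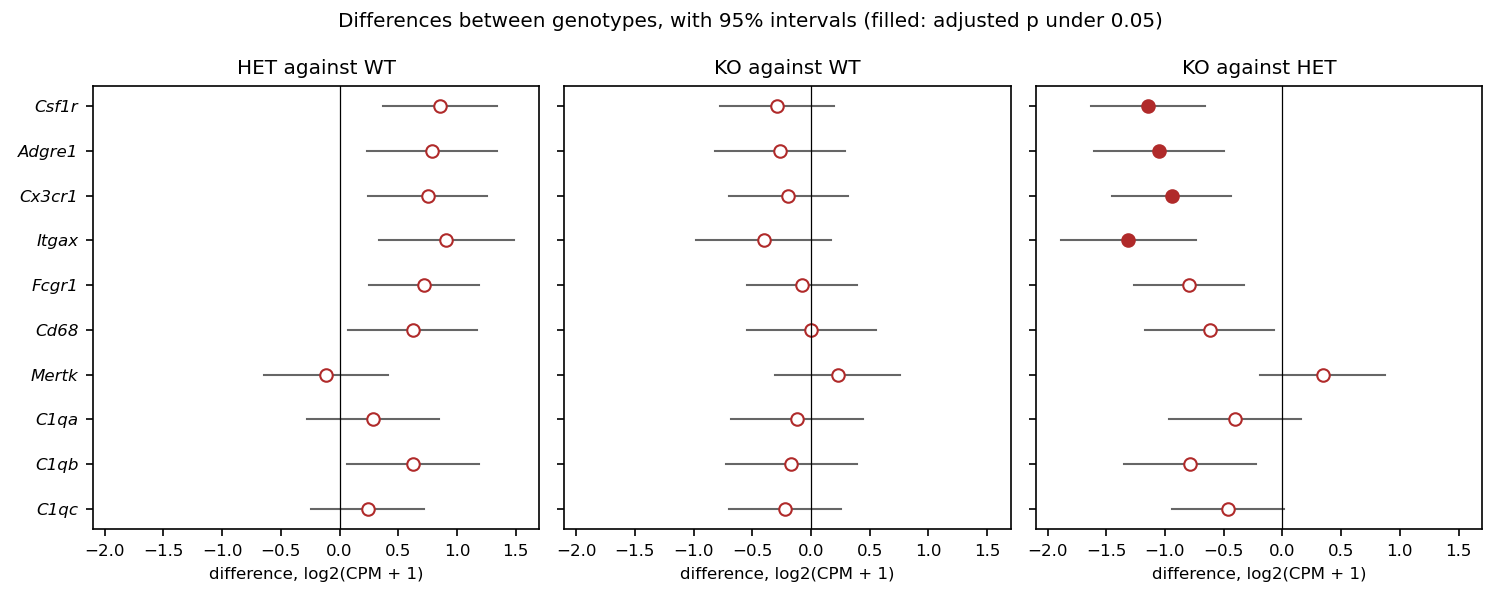
Differences of the 10 genes between genotypes on the log2(CPM + 1) scale with 95% intervals from limma, filled where the adjusted p is under 0.05. The 4 filled points are Csf1r, Adgre1, Cx3cr1 and Itgax in KO against HET, and the KO against WT intervals all include 0.

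The calls between KO and HET ended or became fewer in several fits with 1 library left out. Over all genes, too, fewer passed in each of the fits with 1 library left out that are named next. Such fits leave 1 library in a group and fewer degrees of freedom, and the part of this in the lost calls was not tested. None of the 10 genes passed without HET amino 2, HET hydroxy 1, KO amino 1, KO amino 2 or KO hydroxy 1, and 1 passed without WT amino 1, WT amino 2 or KO hydroxy 2. Csf1r then differed by −0.95 without HET hydroxy 1 (adjusted p = 0.101) and by −1.15 without HET amino 2 (0.0585). Without both older HET mice 1 of 10 passed, and the differences of Csf1r, Itgax, Adgre1 and Cx3cr1 kept their sign. HET hydroxy 1, aged 338 days, was the highest library for 7 of the 10 genes, and KO hydroxy 1 the lowest for 8.

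Some markers of other cell types moved with these genes. Between KO and HET, 3 of 6 fibroblast markers were lower, namely the growth factor receptor Pdgfra (log2 −1.33, adjusted p = 0.0253) and the collagens Col1a1 (−1.32, 0.0389) and Col3a1 (−1.31, 0.0197). The other fibroblast markers, Col1a2, Dcn and Lum, stood at −1.03, −0.34 and 0.05, none past the threshold. Kdr, a receptor of blood vessel endothelium, was lower too (1 of 5 endothelial markers; −1.22, 0.0197), and so was Cd4 (1 of 5 T cell markers; −1.19, 0.0479), which macrophages may also express. The other T cell markers did not move with Cd4: Cd3d, Cd3g, Lck and Cd3e stood at 0.60, 0.21, 0.11 and −0.04, none past the threshold. The median difference was −1.17 over the fibroblast list, −0.96 over the endothelial list, 0.16 over the epithelial list and 0.33 over the B cell list. Fibroblast markers summed to 424 to 802 CPM in HET, 330 to 527 in WT and 180 to 347 in KO, and endothelial markers to 128 to 294, 105 to 155 and 61.1 to 119. The part of these cell types in the differences of the 10 genes was not tested.

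Lists of further myeloid genes gave few calls on the deposited values. None of 7 tested markers of resident macrophages passed between KO and HET (median −0.50; 2 at an unadjusted p under 0.05), and none of 8 dendritic cell markers (median −0.62; 3 unadjusted) or 7 MHC class II genes (median −0.63; 0 unadjusted). Of 6 macrophage cytokines and effectors 1 passed: Il1b, an inflammatory cytokine, fell from 3.86 ± 0.822 CPM in HET to 1.07 ± 0.332 in KO (SD, n = 4; log2 −1.23, adjusted p = 0.0271). In the same list Cxcl10 and Tnf stood at 1.05 and 0.46, not past the threshold (adjusted p = 0.383 and 0.509). Of 6 monocyte markers 1 passed: Plac8, also expressed by epithelium, rose from 550 ± 141 to 1142 ± 216 CPM (log2 1.07, adjusted p = 0.0331). The median over that list was 0.03, and Ms4a6c and Ccr2, a chemokine receptor of monocytes, stood at −0.54 and −0.53 (adjusted p = 0.219 and 0.304). Of 5 Peyer patch genes 1 passed, Tnfaip2, which fell by 1.12 on the log2 scale (adjusted p = 0.0247), while Ccl20 stood at 0.93 (adjusted p = 0.443). None of 10 pan-myeloid and lysosomal genes passed, 7 myeloid transcription factors or 5 pan-leukocyte genes likewise. The pan-myeloid and lysosomal genes summed to 1518 to 1802 CPM in KO and 1248 to 1399 in HET. The sum of the 10 genes followed here ran the other way, at 192 to 284 CPM in KO and 277 to 387 in HET. Such sums weigh abundant genes most. In the single differences between KO and HET, more genes of the pan-myeloid and lysosomal list were below 0 than above. Ctss (0.49), Lamp1 (0.39), Ctsb and Itgam were above 0 there. Cybb (−0.92), Laptm5 (−0.69), Lyz2, Cd53, Aif1 and Tyrobp were below 0. The 3 listed neutrophil markers summed to at most 0.502 CPM in any library.

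**Figure D4:**
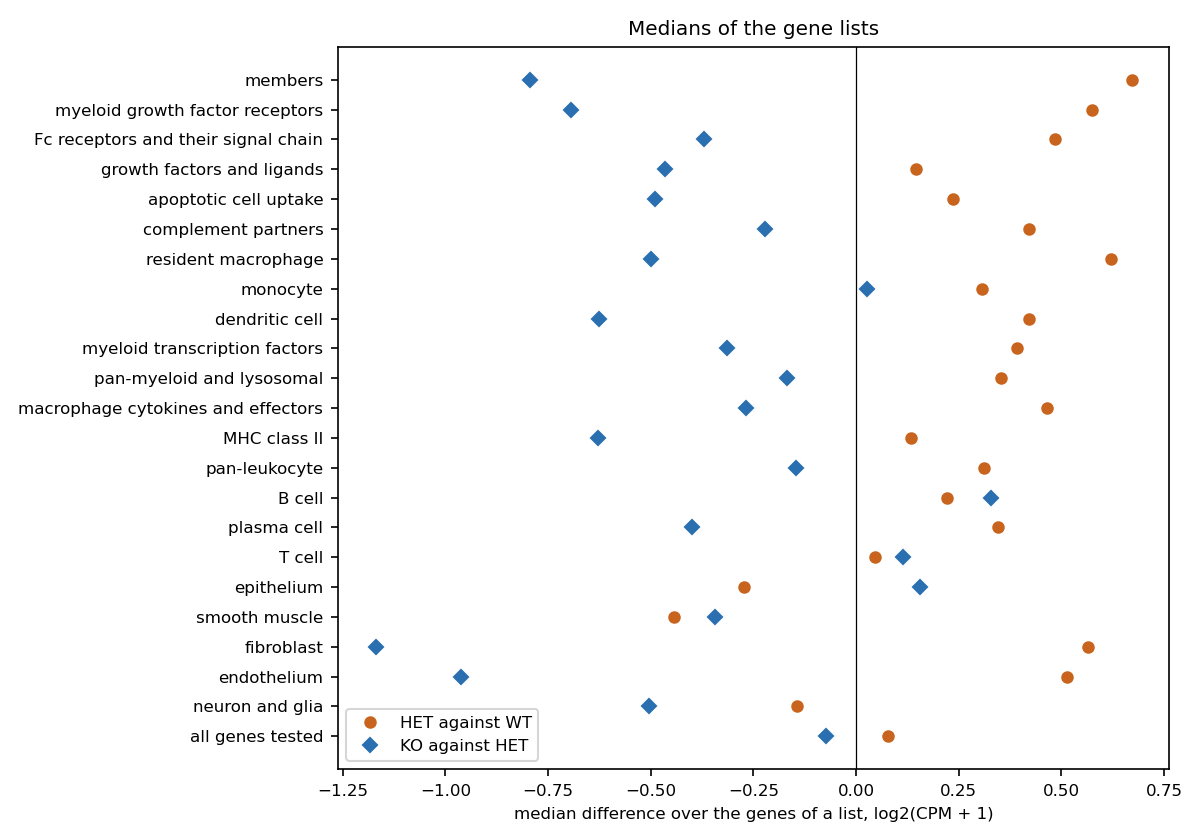
Median difference over the tested genes of each list on the log2(CPM + 1) scale, HET minus WT (circles) and KO minus HET (diamonds), with the 10 genes followed here labelled members. The fibroblast (−1.17) and endothelial (−0.96) medians lie below that of the 10 genes (−0.79) in KO against HET.

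Exon length moved with genotype as well. Relative to the other libraries, genes with at least 4 kb of exon stood above genes under 1 kb by a median of 0.88 on the log2 scale in HET amino 2, 0.52 in HET amino 1, 0.35 in HET hydroxy 1 and 0.07 in HET hydroxy 2. This gap ran from −0.23 to −0.03 in WT and from −0.46 to 0.02 in KO. Accordingly the median difference between KO and HET was 0.42 over genes under 1 kb and −0.22 over genes of 4 kb or more. The 4 called genes hold 3.24 to 5.77 kb of exon, while C1qa, C1qb, Cd68 and C1qc hold 1.04 to 1.93 kb. Fcgr1 and Mertk, which were not called either, hold 2.59 and 4.34 kb.

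An alternative chosen after these values were seen removed the trend with exon length from each library (lowess). Then 8 of the 10 genes were lower in KO than in HET, beside 2.22% of all genes called lower. C1qb differed by −1.13 (adjusted p = 0.0273), Cd68 by −0.93 (0.0431), Fcgr1 by −0.89 (0.0372), C1qa by −0.76 (0.0392) and C1qc by −0.65 (0.0417), whereas Cx3cr1 no longer passed (−0.86, 0.0543) and Mertk stood at 0.41. All 9 genes other than Mertk then had every KO library below every HET library, as did 5.68% of all genes. Among the other lists Pdgfra, Col1a1, Col3a1, Kdr, Csf2ra, Stab1, Axl, Il1b and Tnfaip2 passed under this alternative too. The calls of Lrp1 (−0.31, adjusted p = 0.364), Cd4 (−1.15, 0.0579) and Plac8 (0.82, 0.0898) ended. Lower in KO past the threshold here, but not on the deposited values, were Fcgr4 (−1.04, 0.0458) and Fcer1g (−0.73, 0.0461), 2 of the 4 Fc receptor genes, and Il34 (−0.74, 0.0366), 1 of the 7 ligands. So were C1s1 (−0.88, 0.0355), 1 of the 6 complement partners, and Sirpa (−0.73, 0.0429), a surface receptor and 1 of the 8 dendritic cell markers. The calls of the 10 genes ended, with 0 of 10 left, without HET amino 2, HET hydroxy 1, KO amino 1, KO amino 2 or KO hydroxy 1, and without both older HET mice, and 1 of 10 was left without WT amino 1 or WT amino 2. Without KO hydroxy 2, WT hydroxy 1, WT hydroxy 2, HET hydroxy 2 or HET amino 1 the number left was 3, 4, 4, 5 and 6.

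**Figure D5:**
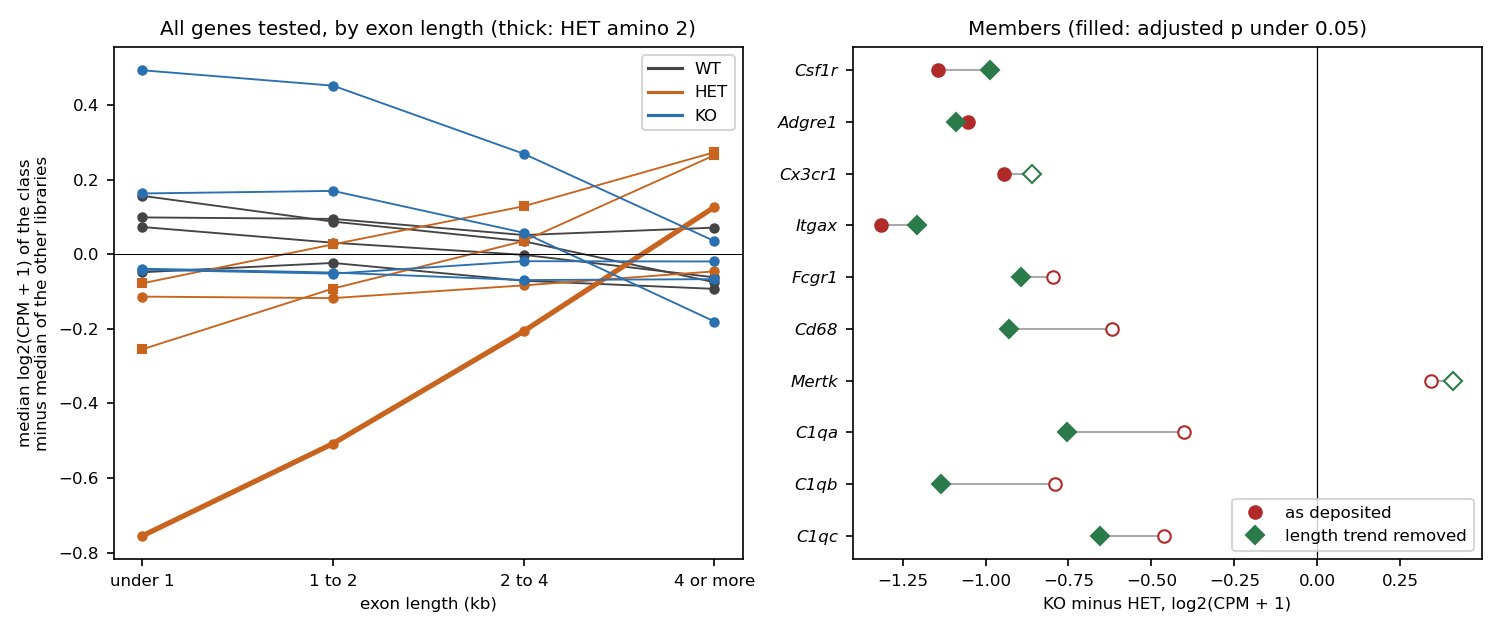
Left, median log2(CPM + 1) of each exon length class in each library relative to the other libraries, with HET amino 2 drawn thick and squares for the older HET mice. Right, KO minus HET differences of the 10 genes as deposited (circles) and with the length trend removed (diamonds), filled where the adjusted p is under 0.05; 4 circles and 8 diamonds are filled.

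Zinc complex made no difference that passed. None of the 14001 genes, and none of the 10, was called between hydroxy and amino complex in all genotypes together, in WT, in HET or in KO, or in the differences of this effect of KO from WT and of HET from WT (0% in each of the 6 comparisons). At an unadjusted p under 0.05 stood 1 of the 10 over all genotypes (8.96% of all genes), 0 in WT (1.03%), 0 in HET (2.68%), 1 in KO (13.7%), and 0 in either difference (3.79% and 1.59%). That gene was Csf1r both times, with −0.40 over all genotypes (adjusted p = 0.553) and −0.93 in KO (95% interval −1.62 to −0.25, adjusted p = 0.304), where 16.2 and 25.9 CPM under hydroxy faced 38.9 and 41.1 under amino. All 10 genes were lower under hydroxy than under amino in the KO mean values, with a median of −0.33 against 0.07 over all genes, which rests on 2 libraries a group. Exon length moved with the complex too. The gap between long and short genes was −0.34 and −0.46 in KO hydroxy 1 and 2, and 0.02 and −0.03 in KO amino 1 and 2. Over all genotypes, the median difference was 0.32 under 1 kb and 0.0007 at 4 kb or more. Csf1r holds the most exon of the 10 genes, 5.77 kb. The part of exon length in the KO differences was not tested. Without KO hydroxy 1 the Csf1r difference in KO was −0.61 and that of C1qa turned to 0.25. For the 9 genes other than Csf1r the 95% intervals in KO all included 0, and that of Adgre1 ran from −1.16 to 0.40.

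Over the 12 libraries, the 9 genes other than Mertk ran with the mean of the remaining members at Pearson r of 0.69 (C1qa) to 0.96 (Adgre1), and Mertk at −0.43. These values describe 12 libraries that share genotype and length differences and were not tested. The genes whose pattern was most like the mean of the 10 (z-scored log2 values) were Srpx2, Mmp10 and Fam105a (r = 0.97 each, n = 12), followed by Ptges, Ocstamp, Lamb1, Slc9a9, Fgf7, Mpeg1 and Col6a4 (0.96 to 0.94). Mpeg1 encodes a pore-forming protein of macrophages, while Lamb1 and Fgf7 encode a laminin chain and a growth factor of stromal cells. Closest to C1qa were Fbln5 (0.97), Apoe (0.96), Clec14a, Milr1 and Plvap (0.95 each), of which Apoe is abundant in tissue macrophages and Plvap marks endothelium. Closest to Mertk, a choice made after its pattern was seen, were Nat8f4 (0.92), Vipr1 (0.90), Gripap1 (0.90), Zyx (0.88) and Slc5a4a (0.87).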

How the data were processed

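RNA-seq was measured in 12 libraries, 2 in each of 6 groups taken from the sample labels. The authors deposited CPM values, read counts scaled by library size, for 17112 genes. Each value carries an offset of 0.0001, as the values themselves show. Partek, TopHat2 and mm10 appear in the submitters' processing notes, without versions or roles. Of the counting tool, annotation and use of strand, the sources used here give nothing. The listed genes summed to 62.0% to 71.8% of a library.

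The steps between low values gave 26.0 to 38.8 M reads per library. Of the low values, 93.7% to 95.5% equalled whole reads within 0.05, too few to treat the values as whole reads, and no count test was run. The filter kept 14001 genes that reached 1 CPM in 2 or more libraries. They were fitted as log2(CPM + 1) by limma 3.58.1 in R 4.3.3, with 6 group means, a trend in eBayes and two-sided tests. The fit had 6 residual and 3.61 prior degrees of freedom. Within each of 9 comparisons the Benjamini-Hochberg adjustment ran over all 14001 genes, and the threshold was 0.05. The p-values rest on the spread between mice within groups, pooled over all 6 groups and moderated by eBayes. KO against HET is therefore judged on the spread within WT too. The script was tested on simulated data.

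Coordinates are those of the deposited table on mm10, 1-based, with its stop reduced by 1, because 56.6% of ends then equal those of RefSeq against 4.09% before. Exon lengths come from GENCODE M21 (98.6% of genes tested) and promoters from RefSeq GRCm38.p6. The 10 genes and the 25 gene lists were chosen with earlier results of these data known. Named beside the 10 were list genes past the threshold, at most 4 further genes of a list with the smallest p, and the genes most alike in pattern. Alternatives covered the pseudocount, filter, scaling, library weights, age, samples and exon length.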

Additional observations from a re-analysis of the deposited data

Results flagged for a closer look

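Adgre1, which encodes F4/80, stood in opposite order with the zinc complex in HET and KO mice. Such an order was looked for in each of the 10 genes and each pair of genotypes, and 1 was found. The share of all genes with such an order was not computed. In HET both hydroxy libraries (13.2 and 9.74 CPM) lay above both amino libraries (9.33 and 8.53 CPM). In KO both hydroxy libraries (2.94 and 4.55 CPM) lay below both amino libraries (5.17 and 4.99 CPM). The difference of the log2 differences, KO minus HET, was −0.694, and this contrast was not tested. Against WT the complex effect on Adgre1 differed by −0.54 in KO (adjusted p = 0.992) and by 0.15 in HET (adjusted p = 0.9998), both by limma and neither past the threshold. For each of the 10 genes and each genotype, the gap from the highest or lowest of the 4 libraries to its nearest neighbour was divided by their range. It exceeded Dixon's 95% critical value in 0 of 30 such sets.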

How the results depend on the processing

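No paired analysis was possible because the labels give no replicate numbers that join mice across groups. Of the 10 genes, 4 passed in KO against HET. That number was 2 without a filter, 2 with quantile normalization, 1 with library weights, 1 without the 2 older HET mice, and 0 when only the groups compared were fitted. It ranged from 0 to 4 with 1 library left out and no other change. The alternatives added after the data were seen gave 0 without the 2 libraries with Fabp6 above 10 CPM and 8 with the trend with exon length removed. With that trend removed as well it was 1 without WT amino 1, 1 without WT amino 2, and 0 without KO amino 1 or 2, KO hydroxy 1, HET amino 2 or HET hydroxy 1, and likewise without both mice over 300 days old or both Fabp6 libraries. In none of the up to 39 alternatives per gene did any of the 10 genes change the sign of its KO against HET difference, which ranged from −1.34 to −0.87 for Csf1r and from 0.08 to 0.74 for Mertk.

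Over all genes, 957 passed in KO against HET. The alternatives gave 607 with the listed genes rescaled to a common sum, 1651 with quantile normalization, 280 with library weights, 1646 with age as a covariate, 451 without the older HET mice, 10 with only the groups compared, 2 without the Fabp6 libraries and 1 to 1396 with 1 library left out. With the length trend removed as well, 167 and 171 passed without WT amino 1 or 2, 332 and 320 without WT hydroxy 1 or 2, 206 without HET amino 2 and 1 without HET hydroxy 1. The same setting gave 4 and 18 without KO amino 1 or 2, 2 and 196 without KO hydroxy 1 or 2, 17 without the older HET mice and 26 without the Fabp6 libraries.

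In KO against WT, 4 genes passed. The alternatives gave 1 with a pseudocount of 0.1, 10 with 5, 1 with a mean of at least 5 CPM, 8 rescaled, 23 with quantile normalization, 10 with median-of-ratios scaling, 32 with library weights, 23 with age, 1 without the Fabp6 libraries, 9 with the length trend removed and 1 to 14 with 1 library left out. In HET against WT, 0 became 1 without a filter, 1 rescaled, 1 with library weights, 3 with age, 1 without the older HET mice, and 0 to 109 with 1 library left out, the highest without HET amino 1. For the complex, 0 became 2 in KO without a filter and 1 with only the groups compared, and 1 for its difference of KO from WT without a filter. Leaving out 1 library gave 0 to 2 in all genotypes, 0 to 6 in HET, 0 to 4 in KO and 0 to 2 for that difference. None of the 10 genes was called in these comparisons under any of these alternatives.

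Small differences that were not called changed sign. In KO against WT, Cd68 became −0.0032 with a pseudocount of 5, −0.025 rescaled, −0.021 with median-of-ratios scaling, −0.0081 with age and −0.071 with the length trend removed. Fcgr1 became 0.070 with quantile normalization and 0.0019 without the Fabp6 libraries, and C1qb became 0.021 without the latter. With 1 library left out the ranges were −0.20 to 0.043 for Fcgr1, −0.17 to 0.18 for Cd68, −0.035 to 0.49 for Mertk, −0.33 to 0.10 for C1qa and −0.42 to 0.085 for C1qb. In HET against WT, C1qa became −0.081 and C1qc −0.033 without the older HET mice.

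For hydroxy against amino over all genotypes, quantile normalization gave −0.032 for Adgre1, −0.011 for Cx3cr1, −0.061 for C1qb and −0.029 for C1qc, and median-of-ratios scaling −0.029, −0.0060, −0.059 and −0.018. C1qb became −0.00023 rescaled and −0.0073 with age. Without the older HET mice Adgre1 became −0.014, Cx3cr1 −0.15 and C1qb −0.015. Without the Fabp6 libraries Adgre1, C1qa, C1qb and C1qc became −0.14, −0.083, −0.17 and −0.11, and with the length trend removed −0.080, −0.14, −0.25 and −0.13. The ranges with 1 library left out were −0.12 to 0.19 for Adgre1, −0.051 to 0.18 for Cx3cr1, −0.21 to 0.028 for Cd68, −0.038 to 0.29 for C1qa, −0.15 to 0.18 for C1qb and −0.072 to 0.18 for C1qc. In KO they were −0.41 to 0.026 for Fcgr1, −0.63 to 0.25 for C1qa, −0.89 to 0.11 for C1qb and −0.63 to 0.12 for C1qc. In the other 4 complex comparisons, whose single values are not given beyond Adgre1, 34 values of 9 genes in WT, 11 of 6 in HET, 20 of 7 for KO against WT and 15 of 5 for HET against WT changed sign, with no adjusted p below 0.886. The cause of these changes was not tested. With 2 libraries a group, leaving 1 out assumes that the lone library varies like the others. Depth limits Fcgr1 most, at 26 reads in its lowest library.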
